A study of Homo sapiens with 3 samples.

Results

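The accessible regions of human chromosome 22 number 2899 of the 215590 peaks measured in a pool of mesothelioma cells, or 1.34% of them. They were selected on chromosome name, and the groups of cells compared below were chosen by the measured share of their peak counts that fell on chromosome 22. For every cell, the counts in these regions were divided by the cell's counts in all peaks, and this chromatin share was set against the share of the cell's transcripts that came from chromosome 22 genes. The pool mixed NCI-H226, a human mesothelioma line labelled NF2 null, with NCI-H226_CL3, 1 clone of it selected for resistance to the TEAD inhibitor GNE7883 under concentrations that rose from 0.25 to 3 µM. Each of these lines had been given GNE7883 or the solvent DMSO, so the pool held 4 conditions, all of them on the NF2 null background. The conditions were marked with hashtag antibodies, combined and run in 1 channel of the 10x Multiome assay, which reads RNA and open chromatin from the same nucleus or permeabilised cell. The counts used here carry no hashtag, so the line and treatment of a given cell are not known. The cells are therefore 1 sample without replicates, every comparison is between groups of cells within it, no p-value was computed, and intervals cover counting error only.

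Chromosome 22 is among the smallest and most gene-dense human chromosomes. It carries NF2, which encodes merlin, a membrane-linked scaffold that activates the LATS kinases of the Hippo pathway. Without merlin the coactivators YAP and TAZ stay in the nucleus and drive TEAD factors, and loss of NF2, often together with loss of a whole copy of chromosome 22, is a recurrent lesion of mesothelioma. A cell with more or fewer copies of a chromosome usually yields more or fewer transposition counts and transcripts from it, although chromatin state and transcription set both readouts as well. Copy number itself was not measured here.

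Cells are barcodes with 1000 or more unique molecular identifiers (UMIs), 1000 or more peak counts and a mitochondrial share of UMIs of 20% or less. There were 8913 among 651860 barcodes, with medians of 1524 UMIs and 4034 peak counts, of which 15 UMIs and 52 counts lay on chromosome 22. All 2899 regions had counts in these cells. The mesothelial markers summed to 9711 counts per 1000000 UMIs (CPM), led by the keratins KRT18 and KRT8. Immune markers summed to 8.80 CPM, with CD3E and NKG7 at 0 UMIs, and fibroblast markers to 118.1 CPM, of which COL1A1 gave 107.6 and COL1A2 0. Endothelial markers summed to 27.4 CPM. In nearly empty barcodes, with under 100 UMIs and under 100 peak counts, the mesothelial markers summed to 12351 CPM, more than in cells. The immune, fibroblast and endothelial markers summed there to 7.60, 109.0 and 12.7 CPM. Marker UMIs of a cell can thus come from free RNA, and that part was not tested. Doublets were not removed.

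The promoter of NF2 and those of its nearest upstream neighbours show a start without and starts with a called peak at this locus. Each sequence is printed 5′ to 3′ on the gene's own strand from 250 bases before to 50 bases after the start, from RefSeq on GRCh38.p14, with CG dinucleotides in capitals. The NF2 window lies on the plus strand at chr22:29603383-29603682, and no peak overlapped it. The window of NIPSNAP1, which encodes a mitochondrial matrix protein, lies on the minus strand at chr22:29581064-29581363, and 1 peak with 551 counts overlapped it. The window of THOC5, a subunit of the mRNA export complex, lies on the minus strand at chr22:29553708-29554007, and 1 peak with 737 counts overlapped it.
NF2: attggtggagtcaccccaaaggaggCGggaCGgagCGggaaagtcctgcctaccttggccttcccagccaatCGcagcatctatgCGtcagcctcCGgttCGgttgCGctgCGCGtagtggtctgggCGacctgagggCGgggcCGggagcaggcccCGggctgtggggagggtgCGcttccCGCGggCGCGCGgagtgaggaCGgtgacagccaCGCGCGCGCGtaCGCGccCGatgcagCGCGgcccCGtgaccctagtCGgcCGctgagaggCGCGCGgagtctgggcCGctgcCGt
NIPSNAP1: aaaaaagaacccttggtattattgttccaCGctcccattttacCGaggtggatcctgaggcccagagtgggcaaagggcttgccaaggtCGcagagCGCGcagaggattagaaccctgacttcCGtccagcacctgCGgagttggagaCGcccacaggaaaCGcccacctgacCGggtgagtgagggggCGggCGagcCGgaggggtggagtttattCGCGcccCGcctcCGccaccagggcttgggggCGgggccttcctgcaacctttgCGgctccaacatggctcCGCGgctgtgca
THOC5: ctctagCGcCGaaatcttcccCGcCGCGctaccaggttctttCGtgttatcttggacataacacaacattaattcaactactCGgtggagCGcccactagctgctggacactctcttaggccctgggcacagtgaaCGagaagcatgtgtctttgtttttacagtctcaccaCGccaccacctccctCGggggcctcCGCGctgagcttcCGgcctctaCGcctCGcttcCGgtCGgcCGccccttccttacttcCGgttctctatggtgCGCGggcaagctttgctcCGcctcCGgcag
The NF2 window is the richest of the 3 in CG dinucleotides, with 39 and a GC content of 72%, against 21 in NIPSNAP1 and 24 in THOC5. The median over 668 chromosome 22 promoters was 18. Of the 106 with at least as many as NF2, 91 overlapped a peak (85.8%), whereas of the 562 with fewer, 292 did (52.0%). NF2 was thus among the few CG-rich promoters of the chromosome without a called peak, together with EP300 and HIRA among others. A count of CG dinucleotides is a description of the window, not a measure of its methylation or activity.

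The regions ran from chr22:10687008 to 50786781, with a median length of 882 bases and a range from 252 to 1209. They lay near gene starts more often than peaks in general. A gene's start is taken here and below as the interval from its first to its last annotated start. That interval can be long, and 16 regions lay over that of ZNRF3, so a region near it can be far from any single start. On chromosome 22, 1169 regions (40.3%) lay within 2 kb of a gene start, against 27.9% of all peaks, and these regions held 55.7% of the chromosome's counts, against 48.3% for all peaks. A region had a median of 110 counts over all cells, between 4 and 2057, and the median over all peaks was 90. The region with the most counts, 2057, was chr22:40950981-40951892 over the start of RBX1, a subunit of cullin ubiquitin ligases. The next, with 1945, was chr22:36387727-36388653 over the start of MYH9, the heavy chain of non-muscle myosin IIA. The third, chr22:46035447-46036361 with 1889 counts, lay 8491 bases from the start of the non-coding gene LINC00899.

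Chromosome 22 took 650825 of 48410778 peak counts in the cells, a share of 1.34%, and 163283 of 16588148 UMIs, a share of 0.984% (95% interval 0.980 to 0.989). In the nearly empty barcodes the shares were 1.44% and 1.17%. Free RNA and fragments are thus not poor in chromosome 22. The median cell had a chromatin share of 1.30%. From the 5th to the 95th percentile the share ran from 0.793 to 2.01%, and the highest cell reached 3.78%. Much of this width is counting. Cells were placed in 20 bins of peak counts. In the shallowest bin, at a median of 1098.5 counts, the observed SD was 0.544 percentage points. Counting alone would give 0.490 there, which leaves 0.235 beyond counting. In the deepest bin, at a median of 17533 counts in 445 cells, the observed SD was 0.348 and the counting SD 0.121, which leaves 0.327 percentage points beyond counting. That was the highest of the 20 bins, and the lowest was 0.172. The share did not follow depth, with a Spearman coefficient of 0.015 between share and peak counts over the 8913 cells.

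The spread is best seen in the 1794 cells with at least 8000 peak counts (20.1% of cells), a minimum chosen after the shares had been looked at. Their median was 1.30%, the 5th percentile 0.960%, the 95th 2.00% and the highest 3.09%. The upper side was the longer, and 148 of these cells lay at 1.8% or above. Relative to its share, chromosome 22 had the largest spread beyond counting of the 23 chromosomes compared (the autosomes and X) in these cells, at 21.4% of the share. Chromosome 13 followed at 17.1%, chromosome 14 at 15.6%, chromosome 18 at 15.1% and chromosome 21 at 13.6%.

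**Figure D1:**
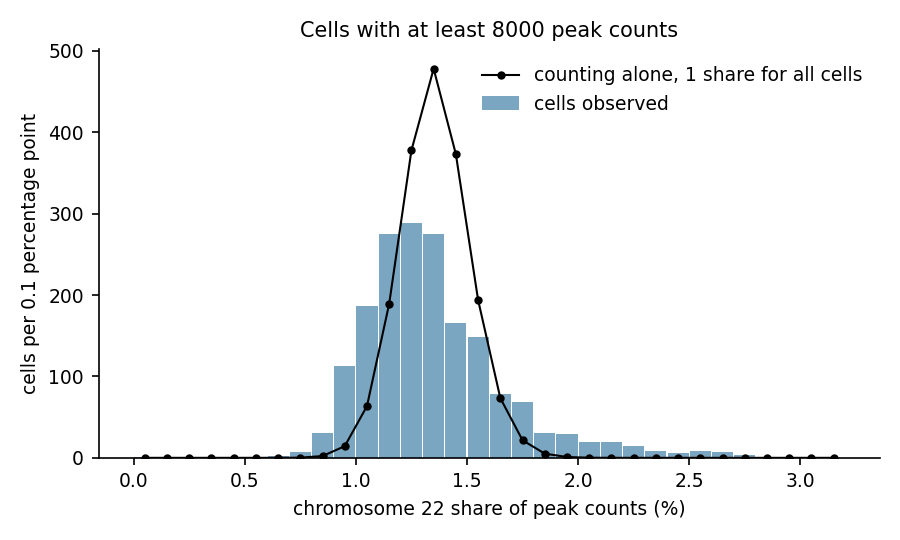
Histogram of the chromosome 22 share of peak counts (x axis, %) in the 1794 cells with at least 8000 peak counts (y axis, cells per 0.1 percentage point). Bars are cells and the line is what counting would give if all cells had 1 share; the bars are wider than the line and reach 3.09%.

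Cells rich in chromosome 22 chromatin also held more chromosome 22 RNA. Over the 8913 cells the chromatin share and the UMI share had a Spearman coefficient of 0.182 and a Pearson coefficient of 0.224. In the 1794 deep cells these were 0.352 and 0.457, and the Pearson coefficient was the fifth highest of the 23 chromosomes. All points come from 1 channel and each cell's own libraries, and both shares carry counting error that lowers the coefficients, so they are given as descriptions with no p. In bands of chromatin share over the deep cells, the chromosome 22 UMI share was 0.827% (95% interval 0.800 to 0.855) in the 158 cells under 1.0%. It was 0.876% in the 461 cells from 1.0 to 1.2%, 0.919% in 564 cells from 1.2 to 1.4% and 1.00% in 315 cells from 1.4 to 1.6%. It was 1.08% in 148 cells from 1.6 to 1.8%, 1.34% (1.28 to 1.39) in 60 cells from 1.8 to 2.0%, and 1.42% (1.38 to 1.47) in the 88 cells at 2.0% or above. The UMI share was higher in every band than in the one before, and the intervals of the last pair overlapped.

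**Figure D2:**
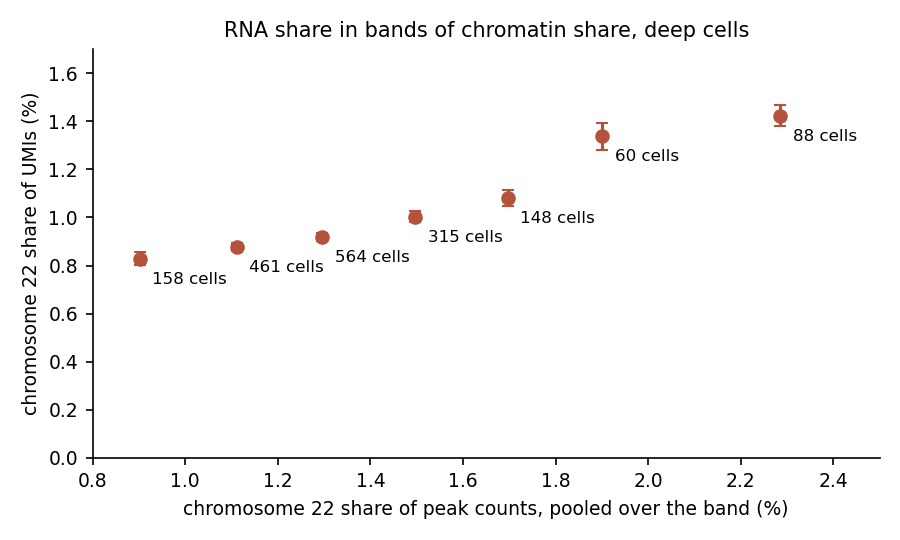
Chromosome 22 share of UMIs (y axis, %, with 95% counting intervals) against the pooled chromosome 22 share of peak counts (x axis, %) in 7 bands of deep cells. The UMI share goes from 0.827% in the lowest band to 1.42% in the highest.

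For a comparison of genes, cells were classed within each depth bin into the 25% with the lowest chromatin share (2220 cells), the 25% with the highest (2220) and the 4473 between. The pooled chromatin share was 0.979% in the low class, 1.30% in the middle and 1.79% in the high class, which the classing itself fixed. The cell just inside the low class had a share between 0.938 and 1.17% depending on the bin, and the cell just outside between 0.943 and 1.17%. For the high class these were 1.46 to 1.70% on both sides. Depth and quality were alike in the low and high class, with medians of 1565 and 1524.5 UMIs and 4035 and 4034.5 peak counts, 14.3 and 13.9% mitochondrial UMIs, and 47.9 and 48.4% of peak counts within 2 kb of a gene start. The RNA was not used in the classing. The chromosome 22 UMI share was 0.906% (95% interval 0.897 to 0.915) in the low class, 0.962% (0.955 to 0.968) in the middle and 1.11% (1.10 to 1.12) in the high class, a high over low ratio of 1.22 (1.20 to 1.24). In the deep cells alone, with 440 cells in each class, the ratio was 1.38 (1.35 to 1.42). Classing the cells the other way round, by UMI share, gave chromatin shares of 1.24, 1.32 and 1.51%, a ratio of 1.22 (1.21 to 1.23).

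The whole length of the chromosome moved together. Each window of 5 Mb was compared between classes made without its own counts, so that the window had no part in choosing the cells. The 8 windows with more than 5 regions were all higher in the high class, by 1.35 to 1.41 times. The window from 25 to 30 Mb, which holds NF2, had 426 regions and a ratio of 1.38 (1.34 to 1.42), inside the range of the others. The window from 15 to 20 Mb was the highest at 1.41 (1.36 to 1.47) and the window from 50 Mb to the end the lowest at 1.35 (1.29 to 1.41), and these intervals overlapped. The window from 10 to 15 Mb had only 5 regions, with a ratio of 1.41 (0.812 to 2.60) that its counts cannot place. In the deep cells the 8 windows ranged from 1.46 to 1.60. Over the same 1794 cells, the 28 pairs of these 8 windows had correlations of their shares from 0.153 to 0.443, with a median of 0.285 and all of them above 0. Chromosome 22 windows paired with 580 windows of other chromosomes had a median of 0.0013 and ran from -0.163 to 0.212, a range that overlaps the lowest chromosome 22 pairs.

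**Figure D3:**
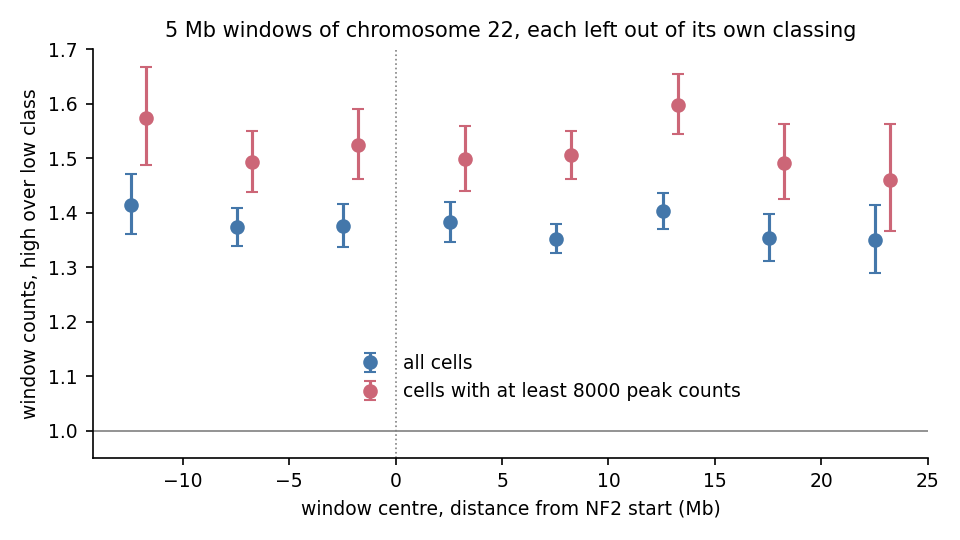
Ratio of counts in the high over the low class (y axis) for 8 windows of 5 Mb, by the distance of the window's centre from the NF2 start (x axis, Mb), with 95% counting intervals. Blue points are all 8913 cells and lie between 1.35 and 1.41; red points are the deep cells and lie between 1.46 and 1.60.

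Single regions followed the windows. With at least 200 counts over both classes, 511 of the 2899 regions could be compared, again with each region's window held out. Here and for genes, a feature is called higher when it was at least 25% more abundant in the high class, or lower when it was that much more abundant in the low class, and its 95% interval excludes 1. The median ratio was 1.41, and 491 regions (96.1%) were above 1, against 51.3% of 31134 peaks of other chromosomes. Those other peaks were compared between the classes made on all chromosome 22 regions, with no window held out. Called higher were 302 regions (59.1%), against 3.58% of the other peaks, and 1 was called lower, against 3.78%. Of 335 regions within 2 kb of a gene start, 217 were called higher, with a median of 1.43. Of 176 farther away, 85 were, with a median of 1.38. The count called depends on how many cells and counts are kept. It was 110 of 144 in the deep cells, against 524 of 11929 other peaks. Without the 8% of cells with most counts it was 137 of 349, against 616 of 22608. The highest ratio, 2.51 (1.65 to 3.73), was at chr22:41290522-41291405, 4270 bases from the start of RANGAP1, the activating protein of the RAN GTPase. The region over the start of TSPO, which encodes a mitochondrial outer membrane protein, at chr22:43151070-43151957, had 84 counts in the low and 179 in the high class, a ratio of 2.10 (1.45 to 3.12). The others of the highest 5 were chr22:46984774-46985671 at 2.38 (1.63 to 3.68), chr22:36467918-36468311 at 2.18 (1.43 to 3.37) and a region inside NF2, described below. The only region called lower was chr22:45548894-45549793, 45917 bases from the start of FBLN1, which encodes the matrix protein fibulin 1, with 195 counts in the low and 123 in the high class, a ratio of 0.626 (0.449 to 0.871). The next lowest were 0.743 (0.512 to 1.06) at chr22:38733467-38734263, 0.848 (0.564 to 1.245) at chr22:24189344-24190207, 0.854 (0.558 to 1.28) at chr22:45105133-45106033 and 0.863 (0.578 to 1.26) at chr22:38298331-38299246, none of them called.

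At NF2 itself no peak lay over the start and the transcript was nearly absent. NF2 had 4 UMIs in the 8913 cells, or 0.241 CPM (95% interval 0.0657 to 0.617), of which 1 fell in the low and 2 in the high class, too few for a comparison. All 651860 barcodes together held 14. The nearest region before the start was chr22:29597225-29598098, 5458 bases away and with 29 counts, and the nearest after it was chr22:29608883-29609783, 4884 bases away and with 74 counts. The stretch of 10784 bases between them has no peak. Such a stretch is not rare on the chromosome, since 28.1% of its 2898 gaps between neighbouring regions were at least as long. The files give each gene's starts as an interval from the first to the last. Of the 95 chromosome 22 genes at 20 CPM or above, 87 had a region over that interval, as did 328 of the 806 below 20 CPM. Of 62 genes with a start within 1 Mb of NF2, 9 reached 20 CPM, and 8 of these 9 had a region over the interval. They were led by TTC28 at 211.4 CPM, whose start interval reaches to within 1 Mb only at its near end. UQCR10, a subunit of respiratory complex III, followed at 110.7 CPM and EWSR1, an RNA-binding protein, at 87.7 CPM. XBP1, a transcription factor of the unfolded protein response, was at 35.9 CPM and the phosphatase MTMR3 at 27.9 CPM. The exception among the 9 was LIF, a cytokine gene, at 20.6 CPM with no region over its start.

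Inside the NF2 gene, which spans 95 kb, lay 8 regions with 1238 counts. They sit in its first part and at its far end, with a peak-free stretch of 53167 bases between chr22:29636406 and 29689572, a length that 2.00% of the chromosome's gaps reach. Together the 8 regions had 245 counts in the low and 460 in the high class, a ratio of 1.86 (1.49 to 2.35) with their window held out. The most accessible of them, chr22:29621785-29622644, had 87 and 190 counts, a ratio of 2.16 (1.48 to 3.13). The next, chr22:29618069-29618974, had 53 and 111, a ratio of 2.08 (1.32 to 3.54), and lay below the 200 counts asked of a single region, as did the other 6. Those 6 ranged from 0.661 (0.243 to 1.58) at chr22:29626405-29627184, the only one lower in the high class, to 4.95 (1.40 to 26.7) at chr22:29635495-29636405. Against the other regions of the same window, whose ratio was 1.37 (1.33 to 1.41), the NF2 regions were 1.36 times higher (1.09 to 1.71). This last difference was sensitive to processing: its interval included 1 in 9 of 14 other settings, with values from 1.18 to 1.70. The 225 regions within 1 Mb of NF2 gave 47 that could be compared, of which 46 were above 1 and 28 called higher, with a median of 1.41, the same as over the whole chromosome.

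**Figure D4:**
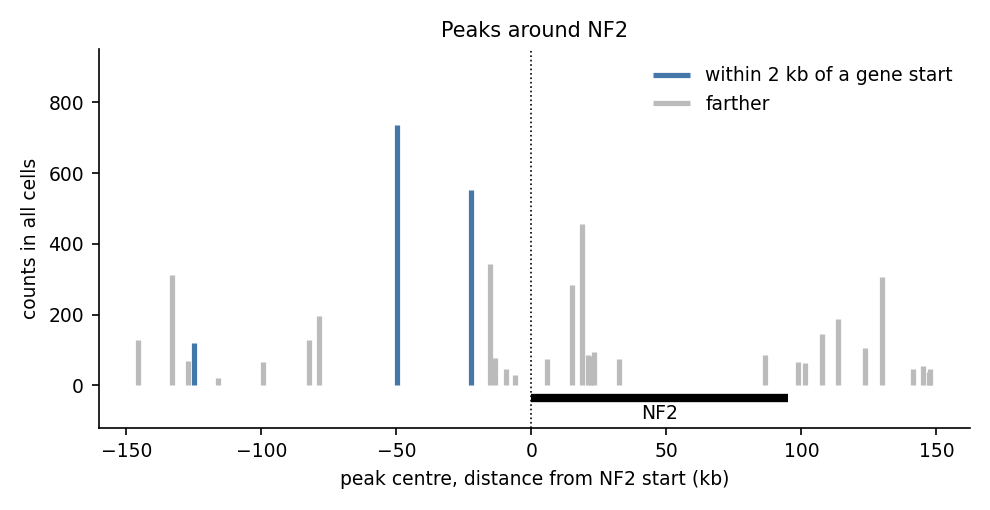
Counts in all 8913 cells (y axis) of the peaks within 150 kb of the NF2 start (x axis, distance of the peak's centre in kb), with peaks within 2 kb of a gene's start interval in blue and the NF2 gene as a black bar. The tall blue peaks are those over the starts of THOC5 (737 counts) and NIPSNAP1 (551 counts), and no peak stands at the NF2 start.

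Transcripts of the chromosome were higher in the high class almost throughout. Of 901 chromosome 22 genes, 106 had 100 or more UMIs over both classes and 20 CPM or more in one of them, out of 6842 such genes on all chromosomes. The median ratio was 1.26, with quartiles of 1.16 and 1.38, against a median of 1.02 over all genes compared. Called higher were 47 (44.3%), against 5.9% of all genes, and 0 were called lower, against 3.43%. At 50% more abundant or above were 17 (16.04%), against 1.42% of all genes, and 0 were lower by that much, against 0.599%. Above a ratio of 1 lay 101 (95.3%), against 55.8% of all genes. A gene that is high in only 1 class can reach the floor through it, and 22 of the 106 did so through the high class and 0 through the low. Among the 95 genes with 20 CPM over all cells, a floor that does not use the classes, the median was also 1.26 and 42 were called higher. With at most 10% mitochondrial UMIs, which leaves 1592 cells, 22 genes could be compared, with a median of 1.06, 4 called higher and 1 lower. Over all 2245 genes compared there, 76 were called higher and 61 lower. The gene ratios were alike along the chromosome. UMIs summed by 5 Mb window of the gene start were higher in the high class in all 8 windows with UMIs, from 1.19 (1.10 to 1.28) at 50 to 55 Mb to 1.35 (1.27 to 1.43) at 30 to 35 Mb.

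**Figure D5:**
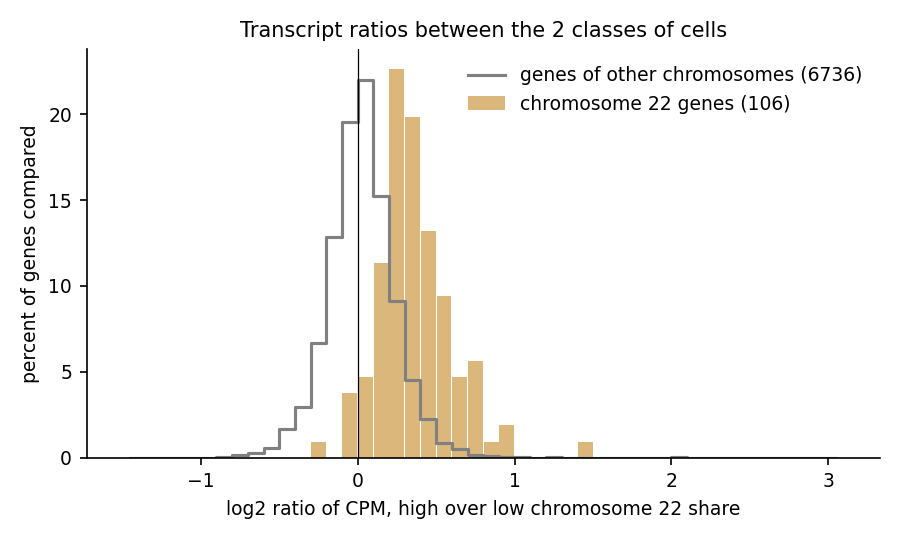
Log2 ratio of CPM between the high and the low class (x axis) for 106 chromosome 22 genes (bars) and the genes of other chromosomes (line), as percent of the genes compared (y axis). The chromosome 22 genes are shifted to the right, with a median ratio of 1.26.

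Of the 10 highest ratios on the chromosome, 7 belonged to genes that were under 20 CPM in the low class and were compared only through their level in the high class. MN1, CABIN1 and NIPSNAP1 were also under 20 CPM over all cells. The largest ratio belonged to MN1, a transcriptional coregulator known from meningioma and leukaemia translocations, at 7.94 CPM in the low and 22.04 in the high class, 2.78 times higher (1.85 to 4.26). PISD, which makes phosphatidylethanolamine in mitochondria, went from 15.2 to 30.1 CPM, a ratio of 1.99 (1.46 to 2.73). GTSE1, a microtubule-bound protein of the G2 and M phases, went from 15.9 to 30.1 CPM, a ratio of 1.90 (1.40 to 2.59). NUP50, of the nuclear pore, had a ratio of 1.80, CABIN1, a calcineurin inhibitor, 1.71, and NIPSNAP1, the neighbour of NF2 printed above, 1.70 (1.21 to 2.42). MICALL1, of endosome recycling, had a ratio of 1.66. The long non-coding RNA TUG1 went from 39.2 to 64.9 CPM, a ratio of 1.66 (1.36 to 2.02). MYH9, one of the most abundant transcripts of the chromosome, went from 385.7 to 632.7 CPM, a ratio of 1.64 (1.54 to 1.75). At the other end were APOL1 at 0.826 (0.652 to 1.04), FBLN1 at 0.944, CYB5R3 at 0.979 and AP1B1 at 0.996, which were among the 5 genes at or below 1, none of them called. GAL3ST1, ZC3H7B, RPL3, SNU13 and POLR2F followed between 1.01 and 1.05. FBLN1 is also the gene nearest to the only region called lower.

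Grouped by role, the genes of the chromosome gave different counts. Of 10 tumour-associated genes, 4 could be compared and all 4 were called higher: MN1, which was compared only through the high class, the metalloproteinase inhibitor TIMP3 at 1.61 (1.28 to 2.02), the acetyltransferase EP300 at 1.38 (1.12 to 1.70) and EWSR1 at 1.26 (1.08 to 1.45). Without MN1 the median of the other 3 was 1.38. SMARCB1, LZTR1, CHEK2, DEPDC5 and PATZ1 of that list were below the floor, as was NF2. Of 5 MAPK and growth factor genes compared, 3 of them, with LIF, only through the high class, 2 were called higher, LIF at 1.57 (1.15 to 2.14) and CDC42EP1, an effector of CDC42, at 1.57 (1.22 to 2.04). Of 5 cell cycle and DNA repair genes, 3 of them compared only through the high class, 4 were called higher, among them RANGAP1 at 1.38 (1.10 to 1.74), and XRCC6, the Ku70 subunit, had a ratio of 1.19 (1.06 to 1.35).

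Of 9 stress and metabolism genes, 5 were called higher, among them the stress transcription factor ATF4 at 1.30 (1.11 to 1.52), the sterol regulator SREBF2 at 1.28 (1.11 to 1.49) and the citrate carrier SLC25A1 at 1.44 (1.15 to 1.81). HMOX1, heme oxygenase 1, also compared only through the high class, was not, at 1.08 (0.793 to 1.47). Of 9 cytoskeleton and adhesion genes, 4 were called higher, among them MYH9, CDC42EP1 and the cadherin CELSR1 at 1.55 (1.16 to 2.09), the last compared only through the high class. LGALS1, galectin 1 and the chromosome's most abundant transcript at 1186 CPM, had a ratio of 1.15 (1.11 to 1.20). Of 12 ribosome, translation and mitochondrial genes, 4 were called higher, led by the initiation factor subunits EIF3D at 1.48 (1.22 to 1.79) and EIF3L at 1.38 (1.16 to 1.65). The ribosomal protein RPL3, the second most abundant transcript, had a ratio of 1.04 (0.998 to 1.09). Of 9 RNA-binding and chromatin genes only EP300 was called, although all 9 were above 1, with a median of 1.19. Of 4 compared genes of the APOL and APOBEC3 families, which act in innate immunity, 0 were called. For all lists the share of all genes called higher was 5.9%. All members lie on chromosome 22, where 44.3% of the genes compared were called higher. That second share is the nearer background for these lists.

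The cells rich in chromosome 22 differed on other chromosomes too. Shares were taken here of the counts outside chromosome 22, so that its own excess does not lower the rest. Chromosome 13 was 1.12 times higher in the high class for peak counts (1.11 to 1.12) and 1.09 times for UMIs (1.07 to 1.10). Chromosome 14 was lower, at 0.894 (0.888 to 0.900) and 0.957 (0.949 to 0.966). Chromosome 21 was lower at 0.938 and 0.954, X at 0.948 and 0.975, and chromosome 3 higher at 1.04 for both readouts. Both readouts moved the same way for these 5 chromosomes. Chromosome 19, which like chromosome 22 is gene-dense, was at 1.01 for peak counts and 0.999 for UMIs. The gene-dense chromosomes 16 and 17 were at 1.01 for peak counts, and at 1.003 and 1.01 for UMIs. In the deep cells alone the UMI ratios were higher, at 1.06 (1.04 to 1.07) for chromosome 19, 1.03 for 16 and 1.04 for 17. Their peak ratios there were 1.02, 1.01 and 1.01. Chromosome 11, with 13.8% of these UMIs in the low class of deep cells, was lower there for UMIs, at 0.889 (0.882 to 0.896). Its peak ratio in deep cells was 0.987. In all cells chromosome 11 was at 0.952 for UMIs and 0.989 for peak counts. Whether the excess of chromosome 22 and these differences share a source was not tested.

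The largest differences of single genes lay on other chromosomes. IGFBP5, at 15.1 CPM over all cells, was compared only through the high class, as were PPP2R2B and ITGB8. IGFBP5, a binding protein of insulin-like growth factors, was at 4.33 and 36.3 CPM, 8.37 times higher (5.12 to 14.5) in the high class. INHBA, which encodes the activin A subunit, was at 43.3 and 200.8 CPM, 4.64 times higher (3.94 to 5.47). PPP2R2B, a regulatory subunit of protein phosphatase 2A, was 4.19 times higher and the non-coding AC004704.1 4.14 times. The adhesion receptor ADGRL3 went from 31.5 to 111.6 CPM, 3.54 times (2.91 to 4.33), the integrin ITGB8 3.26 times, the neural adhesion protein CNTN5 3.08 times and the DNA end resection factor RBBP8 2.48 times. Lowest were CHI3L1, a secreted chitinase-like protein, from 65.5 to 33.9 CPM, a ratio of 0.518 (0.420 to 0.636), ITGBL1 at 0.537, SHOC1 at 0.546, SFTPD, surfactant protein D, at 0.553 (0.464 to 0.657), GPR173 at 0.555, SELENBP1 at 0.581, RSAD2 at 0.583 and SAMD3 at 0.584.

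Cells were then grouped by their transcripts of genes with high ratios. Those genes stood out between classes made by chromosome 22 share. A higher chromosome 22 share in cells that hold them was therefore fixed by the choice and is not separate support. In nearly empty barcodes INHBA, IGFBP5 and ADAMTS6 summed to 73.5 CPM, against 159.4 CPM in cells, and ADGRL3, PPP2R2B and ITGB8 to 69.7 against 129.7 CPM. A cell can therefore hold UMIs of either set from free RNA, and the part of free RNA in the groups was not tested. At least 2 UMIs of INHBA, IGFBP5 and ADAMTS6 together, without as many of the other set, were found in 430 cells, whose chromatin share of chromosome 22 was 1.69% (1.67 to 1.71) and UMI share 1.20% (1.18 to 1.22). At least 2 UMIs of ADGRL3, PPP2R2B and ITGB8, without the first set, were found in 328 cells, with 1.53% (1.51 to 1.55) and 1.05% (1.02 to 1.07). Both sets were found in 24 cells. The 8131 cells with neither had 1.30% (1.30 to 1.31) and 0.961% (0.956 to 0.966). Of the deep cells, 53 of 128 in the first group (41.4%) had a chromatin share of 1.8% or more, 17 of 128 in the second (13.3%), and 71 of 1524 with neither (4.66%). The second group also had 2.65% of its other peak counts on chromosome 13 and 2.06% on chromosome 14, against 2.10 and 2.79% in cells with neither, while the first group was close to the latter at 2.14 and 2.88%. Along the bands of deep cells, INHBA went from 25.6 CPM under 1.0% to 505.7 CPM from 1.8 to 2.0% and 441.0 CPM at 2.0% or above, and CNTN5 from 100.1 to 711.8 CPM. ADGRL3 was highest, at 244.3 CPM, from 1.6 to 1.8%, and was at 72.9 CPM at 2.0% or above. CHI3L1 went from 90.8 CPM to 13.9 CPM. These gene sets and the limit of 2 UMIs were chosen after the values had been seen, and deeper cells reach it more easily: median peak counts were 5057.5, 6107.5 and 3920 in the first, second and neither group.

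Leaving out the 3821 cells with any UMI of those 6 genes, AC004704.1 or CNTN5 left 5092 cells in which chromosome 22 still varied, but less. The UMI ratio was 1.10 (1.08 to 1.12) and the held-out windows ranged from 1.18 to 1.249. Of 78 chromosome 22 genes, 6 were called higher, against 203 of 6147 over all genes, with a median ratio of 1.12 on chromosome 22. The cells left out were chosen by genes that were high in the high class, and cells with these transcripts were deeper. The removal itself can therefore lower these values, and the size of that part was not tested.

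Other gene groups were read against the 5.9% of all genes called higher and the 3.43% called lower. Of 15 S phase genes, 3 of them compared only through the high class, 8 were called higher and 0 lower, with a median of 1.28. Of 21 G2 and M phase genes, 1 of them (PLK1) compared only through the high class, 9 were called higher and 0 lower, with a median of 1.24. The proliferation marker MKI67 was at 64.2 and 111.9 CPM, a ratio of 1.74 (1.496 to 2.03), and the topoisomerase TOP2A at 353.0 and 484.5 CPM, a ratio of 1.37 (1.28 to 1.47). In the 3990 cells without a UMI of MKI67, TOP2A, CENPE, CENPF or RRM2, the chromosome 22 UMI ratio was 1.247 (1.22 to 1.27), against 1.22 in all cells. There 24 of 63 chromosome 22 genes were called higher, against 241 of 5166 over all genes. Of 115 chromosome 22 regions 52 were, against 334 of 10880 other peaks. Cells with few UMIs lack these transcripts more easily, and the part of depth in this choice was not tested. The Hippo pathway, of which merlin is the upstream scaffold, had 0 of 16 genes called, with a median of 1.03, TEAD1 at 0.987 (0.921 to 1.06) and YAP1 at 0.925 (0.822 to 1.04). Of 12 YAP and TEAD targets 1 was called, NT5E, the ectonucleotidase CD73, lower at 0.693 (0.527 to 0.908), and the target CCN1 was at 0.964 (0.890 to 1.04). CCN2, a target below the floor, was at 12.03 and 19.7 CPM, a ratio of 1.64 (1.14 to 2.37). All 16 listed targets summed to a ratio of 1.01 (0.990 to 1.04). Of 6 MAPK output genes, 1 of them (SPRED2) compared only through the high class, 1 was called, PHLDA1, lower at 0.723 (0.600 to 0.869). DUSP4, below the floor, was at 8.66 and 18.96 CPM, a ratio of 2.19 (1.46 to 3.34). All 13 listed MAPK output genes summed to a ratio of 1.01 (0.949 to 1.08). Other members of these lists below the floor are not given here. Of 16 interferon response genes 0 were called, with a median of 0.906. Of 9 mesothelial markers 1 was called lower, LRRN4, and their summed level was 9910 CPM in the low and 9234 CPM in the high class. The fibroblast marker COL1A1, a collagen chain, was lower at 0.626 (0.546 to 0.717), the fibroblast markers summed to 142.7 and 90.1 CPM, and immune markers summed to 10.3 and 7.59 CPM. HMGA2, a chromatin protein of embryonic and tumour cells, was lower at 0.630 (0.563 to 0.704), and 3 of the 4 other compared genes of its list were called lower, while NRG1, a ligand of the ERBB receptors, was called higher at 1.59 (1.28 to 1.99). The part of these groups in the chromosome 22 difference was not tested.

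A single cell, chosen after its values had been seen, had no chromosome 22 count at all. It held 15321 peak counts in 7664 peaks and 2683 UMIs, with 15.7% of UMIs mitochondrial. At the pooled share it would have had 206.0 chromosome 22 counts, and 0 allows a share of up to 0.0392% (3 events of 2 counts). Its chromosome 22 UMIs were 9, against 26.4 at the pooled share. Chromosome 13 had 2 counts against 322.1, and 7 UMIs against 34.6. Chromosome 6 had 333 counts against 892.0 and 35 UMIs against 123.8, whereas chromosome 2 had 1623 counts against 1099 and 179 UMIs against 136.7. These 4 chromosomes were picked after their values had been seen, and are not the only ones that departed. Chromosome 12 departed further than chromosome 2, with 1472 counts against 903.2 and 228 UMIs against 167.7. Over all 23, chromatin and RNA departed from the pool in the same direction in 18 and in opposite directions in 5, and the next lowest chromosome 22 share in a deep cell was 0.125%.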

How the data were processed

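Deposited values are raw counts in whole numbers, per the file headers, with no normalization: UMIs for genes and transposition counts for peaks, of which 87.9% of entries are even. Intervals on peaks therefore take 2 counts as 1 event. The submitters' processing notes name MACS2, ArchR 1.0.3, Cell Ranger ARC 2.0.0 and Cell Ranger 2.0.0 with the build GRCh38.p10. For peak calling, settings were not given in the sources used here. Counts were summed over the cells of a class with Python 3.11.15, numpy 2.4.6 and scipy 1.17.1, and UMIs scaled to 1000000. Intervals at 95% are conditional binomial for ratios and Clopper-Pearson for shares, unadjusted for the number of features. Low and high classes are each 25% of cells within 20 depth bins. The code was tested on simulated data. Named were the 10 highest and 10 lowest chromosome 22 genes, 8 and 8 genes elsewhere, members of the chromosome 22 lists, the 5 most expressed genes near NF2, and the regions with most counts or extreme ratios. Members, lists and rules were chosen with earlier results of these data known. Alternatives changed the cell filters, classing, peaks used, gene floor and scaling (TMM). Some genes that the rule names are not reported here. Chromosome Y and the hashtag library were not used here.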

Additional observations from a re-analysis of the deposited data

How the results depend on the processing

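No paired analysis was possible because all cells form 1 pooled sample, which also leaves no replicate to leave out. The ratios and coefficients listed next kept their direction in all settings run, and sizes followed depth and the cells kept; beyond fewer cells, the cause was not tested. Each count called is given with the number compared. Brackets hold the peaks of other chromosomes called higher (main 1114 of 31134). In the order SD beyond counting in the deepest bin (main 0.327 points), Spearman (0.182), UMI ratio (1.22), median window ratio (1.37), regions called higher (302 of 511), genes called (639 of 6842), chromosome 14 ratio (0.894) and chromatin ratio by UMI share (1.22), the values that moved were as follows. With at least 500 UMIs and peak counts they were 0.303, 0.0965, 1.16, 1.30, 398 of 6747 genes, 0.918 and 1.15. With at least 2000 they were 0.292, 0.359, 1.37, 1.54, 87 of 126 regions (487 of 10316 elsewhere), 0.855 and 1.37. With at most 10% mitochondrial UMIs they were 0.229, 0.084, 1.13, 1.28, 0 of 0 regions, 137 of 2245 genes, 0.940 and 1.09. Without the 8% of cells with most counts they were 0.235, 0.159, 1.18, 1.31, 137 of 349 regions (616 of 22608 elsewhere), 0.925 and 1.16. Classes of 10% in place of 25% gave 1.38, 1.61, 80 of 101 regions (393 of 9074 elsewhere), 0.912 and 1.34. Peaks farther than 2 kb from a gene's start interval gave 0.260, 0.133, 1.18, 1.31, 64 of 172 regions (486 of 14295 elsewhere), 0.930 and 1.20. Those within 2 kb gave 0.382, 0.160, 1.35, 169 of 337 regions (492 of 16726 elsewhere) and 1.24. Presence or absence gave 117 of 168 regions (437 of 13704 elsewhere), 0.904 and 1.20. Without the 5 chromosome 22 genes with most UMIs the UMI ratio was 1.2498 and the last value 1.21. A minimum of 400 counts left 125 of 168 regions called (514 of 13422 elsewhere). Without the 1% of peaks with most counts the SD was 0.361 and chromosome 14 at 0.900. Against gene-dense chromosomes only, a different denominator, these were 1.67 and 0.881. Without depth bins chromosome 14 was at 0.903. A floor of 10 UMIs with no CPM minimum called 1103 of 14201 genes.

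Chosen after seeing the data were 3 settings. Cells with at least 8000 peak counts gave 0.302, 0.352, 1.38, 1.502, 110 of 144 regions (524 of 11929 elsewhere), 0.858 and 1.33. Without the INHBA and ADGRL3 set cells the values were 0.182, 0.104, 1.10, 1.21, 26 of 163 regions (473 of 15014 elsewhere), 338 of 6147 genes, 0.946 and 1.10. There the NF2 regions were at 1.44 (main 1.86). Without cycling transcripts the values were 0.296, 1.247, 1.35, 52 of 115 regions (334 of 10880 elsewhere) and 411 of 5166 genes. Of 80 named genes, direction reversed in 7 of 1190 values. With at most 10% mitochondrial UMIs these were DDX17 (0.939), NUP50 (1.00), UQCR10 (0.938) and SFTPD (1.18). Without the INHBA and ADGRL3 set cells they were FBXO7 (0.907), TNRC6B (0.961) and TRIOBP (0.985).

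With medians of 52 counts and 15 UMIs on chromosome 22, single shallow cells cannot be placed. Doublets remain, and no condition could be compared.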

Other observations

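Further genes outside chromosome 22 differed between the classes; these were picked after their values had been seen. ABCG2, a drug efflux pump, was at 19.97 CPM in the low and 37.7 CPM in the high chromosome 22 class, a ratio of 1.89 (1.44 to 2.49). CCND2, cyclin D2, was at 43.1 and 85.1 CPM, a ratio of 1.98 (1.65 to 2.38). ESCO2, a cohesin acetyltransferase of S phase, was at 9.63 and 20.6 CPM, a ratio of 2.14 (1.46 to 3.20). BMI1, a Polycomb protein, was at 13.5 and 25.4 CPM, a ratio of 1.88 (1.35 to 2.65). ABCG2, ESCO2 and BMI1 were compared only through their level in the high class.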
